A study of Mus musculus with 127 samples.

Results

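The interferon-stimulated genes described here are 46 listed mouse genes, taken by their symbols from a gene count table of sorted blood stem and progenitor cells. All 46 symbols are in the table, which holds 23366 gene symbols, and all 46 have counts in at least 1 library. They passed the filter on low counts in every comparison, so no member was left untested. The list is one of gene names, chosen with earlier results of these data known.

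The cells were of 3 types: LT, the long-term stem cells that can rebuild blood for life, ST, the short-term stem cells, and MPP, multipotent progenitors without lasting self-renewal. Bulk polyadenylated RNA was sequenced after SMART-seq2, which amplifies whole cDNAs from little input. The cells were sorted from bone marrow by surface markers and kept in HSPC medium. The study asked how these cells respond to bacterial ligands over time and with age. Old mouse 2 and young mice 1, 2 and 3 gave cells that received LPS at 100 ng/ml, a ligand of the receptor Tlr4, together with Pam3csk4 at 1 ug/ml, a synthetic lipopeptide bound by Tlr2, and were collected at 0, 0.5, 1, 2, 4, 8 and 12 h. The cells without ligand came from old mouse 4 and young mouse 4, with collections at 0, 2, 4 and 8 h. The labels of the 0 h libraries differ: those of young mice 1 and 2 name the ligands, as do those of old mouse 2 except for 2 of its 4 LT repeats, and those of young mouse 3 name no treatment. Whether the cells at 0 h had met ligand is not given, so a change from 0 h is a change from the mouse's first collection and not from cells known to be untreated. All groups share the sort and the medium, and the labels give no strain, sex or exact age. The library names carry different dates or tags for different mice, and mouse 4 of both ages carries the same tag. Ligand and no ligand therefore cannot be told apart from mouse and sample series. Each mouse's own 0 h library gives its starting level only, and no mouse has both courses.

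Interferons are secreted antiviral proteins. Their receptors activate Janus kinases and transcription factors, among them Stat2 and Irf9, which enter the nucleus and bind the interferon-stimulated response element (ISRE) in front of target genes; interferon gamma acts on another site, called GAS. The products of these targets block viral translation, degrade or sense viral RNA, coat pathogen vacuoles and feed back on the pathway. Tlr4 can start the same programme through the adaptor Ticam1 and interferon beta, and interferon signals are known to bring quiescent stem cells into cycle.

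After technical repeats were summed there were 108 libraries of 1 mouse, cell type and time, with 990801 to 11764630 counts (median 4200713) and 6241 to 14096 detected genes. Levels are given in CPM, the count scaled to the total of its library. At 0 h the markers Flt3, Cd48 and Cd34 together were higher in MPP than in LT and ST in 6 of 6 mice. Neutrophil granule transcripts stood apart in young mouse 3, with a sum of 98.8 to 240 CPM at 0 h, against at least 16764 CPM in the other 5 mice. In bulk RNA fewer cells of a type and less RNA per cell cannot be told apart.

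The ISRE is the element that many of these genes are known by, so the promoters of 5 members that the results below turn on, and of 1 member that was above 0 in every library without ligand at 8 h, are shown. Each is the 170 bases before a RefSeq transcription start in the mouse build GRCm38.p6, 5′ to 3′ on the gene's own strand. Capitals mark matches on either strand to the ISRE pattern searched, GAAA, any 2 bases, GAAA.
Igtp: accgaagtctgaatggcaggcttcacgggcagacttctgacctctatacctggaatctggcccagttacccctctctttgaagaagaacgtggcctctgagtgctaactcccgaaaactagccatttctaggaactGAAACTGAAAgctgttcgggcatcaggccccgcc
Gbp3: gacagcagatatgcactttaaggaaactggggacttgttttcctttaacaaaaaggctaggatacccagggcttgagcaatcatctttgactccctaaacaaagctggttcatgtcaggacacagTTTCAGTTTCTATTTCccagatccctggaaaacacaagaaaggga
Ifit3: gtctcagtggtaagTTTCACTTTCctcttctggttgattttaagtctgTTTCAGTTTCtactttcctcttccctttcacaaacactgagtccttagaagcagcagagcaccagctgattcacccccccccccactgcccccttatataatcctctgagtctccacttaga
Rsad2: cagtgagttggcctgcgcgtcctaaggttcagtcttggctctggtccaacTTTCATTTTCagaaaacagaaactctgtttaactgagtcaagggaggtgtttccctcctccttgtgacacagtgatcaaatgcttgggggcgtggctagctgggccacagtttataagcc
Isg15: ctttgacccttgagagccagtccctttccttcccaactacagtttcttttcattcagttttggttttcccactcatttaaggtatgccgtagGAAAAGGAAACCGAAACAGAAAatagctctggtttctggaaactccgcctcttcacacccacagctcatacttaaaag
Samhd1: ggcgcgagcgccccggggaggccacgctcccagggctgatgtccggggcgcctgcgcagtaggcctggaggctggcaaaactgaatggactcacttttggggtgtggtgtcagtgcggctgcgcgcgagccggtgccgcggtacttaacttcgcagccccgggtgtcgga
The windows lie at chr11:58199386-58199555 on the plus strand for Igtp, chr3:142559874-142560043 (plus) for Gbp3, chr19:34583359-34583528 (plus) for Ifit3, chr12:26456453-26456622 (minus) for Rsad2, chr4:156200819-156200988 (minus) for Isg15 and chr2:157135097-157135266 (minus) for Samhd1. The match begins 34 bases before the start in Igtp and 120 in Rsad2, while Gbp3 and Isg15 hold overlapping matches, 2 and 3 in number, and Samhd1 holds none in this window. Where a gene had several starts, one with a match was taken if there was any. Oasl1, Xaf1, Cmpk2 and Ifit2, also named below, had no match and are not shown. The promoters shown were thus picked, and they do not tell how often members hold a match.

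RefSeq promoter entries (250 bases before to 50 after the start) were matched by symbol for 35 of the 46 genes. The ISRE pattern was found in 17 of the 35 (48.6%), against 3.99% of 27025 symbols with such a window. The GAS pattern, TTC, any 3 bases, GAA, was found in 11 (31.4%), against 9.55% of all symbols. The pattern GGGA, any base, TTTCC, bound by NF-kB, was found in 0 of the 35 and in 0.466% of all symbols. Every pattern was searched on both strands, and a match is a run of letters and not a bound site.

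With ligand the summed level of the interferon-stimulated genes was lower at 1 h than at 0 h and mostly higher at 8 h, and without ligand it was lower than at 0 h at each time in culture. At 8 h their summed level was higher in each of the 12 libraries with ligand than in any of the 6 without. In LT it was 4651, 4557, 6130 and 2324 CPM in young mice 1, 2 and 3 and old mouse 2 with ligand, against 672 and 770 CPM in young mouse 4 and old mouse 4 without. In ST it was 2265, 5694, 3860 and 6894 CPM with ligand, against 761 and 832 CPM without. In MPP it was 1503, 2870, 4802 and 4065 CPM with ligand, against 774 and 624 CPM without. The groups did not overlap in any cell type, and the sums without ligand lay between 624 and 832 CPM in all 3.

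At 0 h the sums of the same mice overlapped in LT only. There they were 2204, 2889, 3155 and 3166 CPM in the ligand courses, against 2315 and 1936 CPM in the others. In ST they were 2714, 3037, 3768 and 2838 CPM, against 2568 and 1972 CPM. In MPP they were 2690, 2612, 2924 and 2319 CPM, against 2100 and 1933 CPM. In ST and MPP every mouse of the ligand courses was thus above both others at 0 h already. As a share of each mouse's own 0 h level, the sum with ligand was 53.4 to 79.9% at 1 h (12 of 12 libraries below their 0 h level), 46.5 to 110.7% at 2 h, 55.9 to 242.9% at 8 h (9 of 12 above) and 44.6 to 222.4% at 12 h (9 of 12 above). Without ligand it was 45.2 to 60.8% at 2 h, 38.9 to 49.8% at 4 h and 29.0 to 42.2% at 8 h, below the 0 h level in 6 of 6 libraries each time. The 3 libraries with ligand that stayed below their 0 h level at 8 h were ST and MPP of young mouse 1 and LT of old mouse 2. The lower sums at 1 h were measured with ligand only, since no library without ligand was collected then. At 2 h the shares with and without ligand overlapped in MPP but not in LT or ST.

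**Figure D1:**
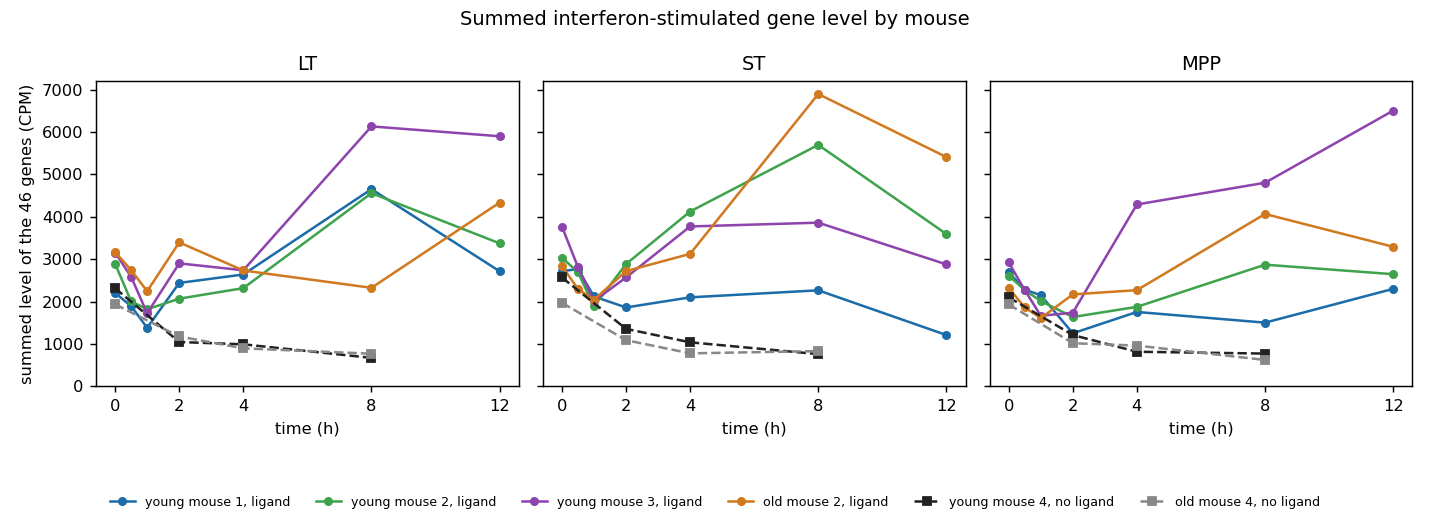
Summed level of the 46 genes (CPM, linear axis) against time in hours, with 1 line per mouse and 1 panel per cell type; circles are mice with ligand and squares with dashed lines are mice without. At 8 h the circles sit between 1503 and 6894 CPM and the squares between 624 and 832 CPM.

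The comparison of the 2 courses asked which members changed from 0 h differently with ligand than without, in a fit of 72 libraries with edgeR's quasi-likelihood test and Benjamini-Hochberg adjustment over 14401 genes. This main fit had no term for mouse, so it did not use the pairing of libraries of 1 mouse. At 8 h 2 members were called, both in ST: Gbp3 and Igtp (genes called in this comparison: 0.0903% of all genes in ST). No member was called in LT or MPP by edgeR, where 0.0347% and 0.0625% of all genes were called. An unadjusted p under 0.05 was reached by 20 members in LT, by 18 in ST and by 20 in MPP, all higher with ligand, against 5.07%, 6.10% and 3.98% of all genes in either direction. DESeq2 called 14, 8 and 9 members after adjustment at 8 h, against 2.14%, 2.24% and 1.51% of all genes by the same tool, and limma voom called 6, 9 and 15, against 0.431%, 0.854% and 3.61%. With each mouse as a block, edgeR called Gbp3 in LT and Gbp2 and Oasl1 in MPP as well as the pair in ST. Fitted changes were positive for 42, 43 and 42 of the 46, with medians of 4.54, 3.20 and 3.67 on the log2 scale. Members at 0 counts without ligand enter these medians with values that depend on the prior count. The share of all genes with a positive change is not given here. In single libraries the median log2(CPM + 1) change over all genes at 8 h was -0.44 to 0.0 with ligand and -0.25 to 0.0 without. For the members it was -0.78 to 1.26 and -3.57 to -2.41. Without young mouse 4 the count at an unadjusted p under 0.05 in MPP was 12, and without young mouse 1 edgeR called 6 members in LT and 3 in MPP after adjustment, over 2, 4 and 8 h together. Shares of all genes with the block or with a mouse left out are not given here, so these counts have no background beside them. At 2 h edgeR called 0 members (0.0%, 0.0139% and 0.00694% of all genes in LT, ST and MPP) and at 4 h 0 (0.0%, 0.00694% and 0.0278%), and 2, 4 and 1 members in LT, ST and MPP had an unadjusted p under 0.05 at 2 h (3.11%, 3.06% and 1.09% of all genes) and 6, 12 and 9 at 4 h (3.37%, 4.08% and 2.40%). DESeq2 called 0, 3 and 1 members at 4 h (0.917%, 1.31% and 0.84% of all genes), and limma voom called 1, 1 and 4 (0.111%, 0.354% and 1.24%). Neither called any at 2 h, where DESeq2 called 0.674%, 0.868% and 0.403% of all genes and limma voom 0.181%, 0.368% and 0.729%.

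The levels themselves were compared as well. At 8 h every mouse with ligand was above both mice without for 24 members in LT, 29 in ST and 30 in MPP, where 4.88%, 8.38% and 15.8% of all genes were. At 4 h the counts were 14, 20 and 25 (3.85%, 7.71% and 13.1% of all genes), and at 2 h they were 9, 14 and 12 (3.91%, 6.56% and 10.5%). At 0 h they were 9, 10 and 16, against 8.10%, 10.0% and 18.6% of all genes. At 8 h all mice with ligand were below both mice without for 0, 0 and 1 members, where 6.71%, 6.55% and 7.85% of all genes were. Members higher than at 0 h in all 4 mice with ligand and lower in both mice without numbered 5, 6 and 8, where 0.840%, 1.46% and 2.49% of all genes did so. The count of members with every mouse with ligand above both mice without thus rose from 2 h to 4 h and 8 h in all 3 cell types. From 0 h to 2 h it rose in ST (10 and 14), was the same in LT (9 and 9) and fell in MPP (16 and 12). At 0 h already, the members were above the share of all genes by this rule in each cell type.

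Fewer members were detected without ligand. At 8 h 38 to 46 of the 46 genes had a count in a library with ligand, against 23 to 28 without. Over all genes, 6241 to 13356 were detected in a library with ligand and 8845 to 10253 without. When each library was drawn down in expectation to the 990801 counts of the shallowest one, the numbers were 37.6 to 46 with ligand and 22.7 to 26.9 without. For all genes they were then 5820 to 12021 with ligand and 8599 to 9922 without. No member was at 0 in all 4 mice with ligand in any cell type, where 11.7%, 12.6% and 7.30% of all genes were in LT, ST and MPP. Members at 0 counts in both mice without ligand numbered 16 in LT, 13 in ST and 13 in MPP, where 25.0%, 26.7% and 24.3% of all genes were at 0. In ST and MPP these counts were near the share of all genes. The libraries at 8 h held 1740265 to 6246561 counts with ligand and 1369278 to 1883820 without.

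Other transcripts moved between the same libraries. Monocyte and macrophage markers (7 of 8 listed were in the table) summed to 98.7 to 2119 CPM at 8 h with ligand and to 259 to 512 CPM without, while at 0 h they summed to 21.9 to 2231 CPM in the ligand courses and to 2205 to 2857 CPM in the others. Of these markers 3 to 7 were above 0 in each library of either course at 8 h. Plasmacytoid dendritic markers, of cells known as strong interferon producers, summed to 16.4 to 237 CPM at 8 h with ligand and to 13.2 to 105 CPM without. Summed over 7 stem cell markers (Procr, Slamf1, Mecom, Hlf, Fgd5, Kit and Ly6a), the level at 0 h was 493 to 2430 CPM in the ligand courses, against 275 to 492 CPM in the others, and at 8 h it was 485 to 3547 CPM with ligand, against 191 to 765 CPM without. Of these 7 markers 3 to 7 were above 0 in each library at 8 h with ligand and 4 to 5 without. The MPP markers had a median sum of 390 CPM at 8 h with ligand, against 828 CPM at 0 h, and without ligand of 40.1 CPM at 8 h, against 290 CPM at 0 h. Median sums without ligand were also lower at 8 h than at 0 h for erythroid markers (79.0 CPM, against 739 CPM), B cell markers (38.6 CPM, against 159 CPM) and T and NK cell markers (40.8 CPM, against 227 CPM). The mice without ligand thus differed at 0 h already, with lower stem cell and mostly higher monocyte marker sums, and the part of these markers in the results was not tested.

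**Figure D2:**
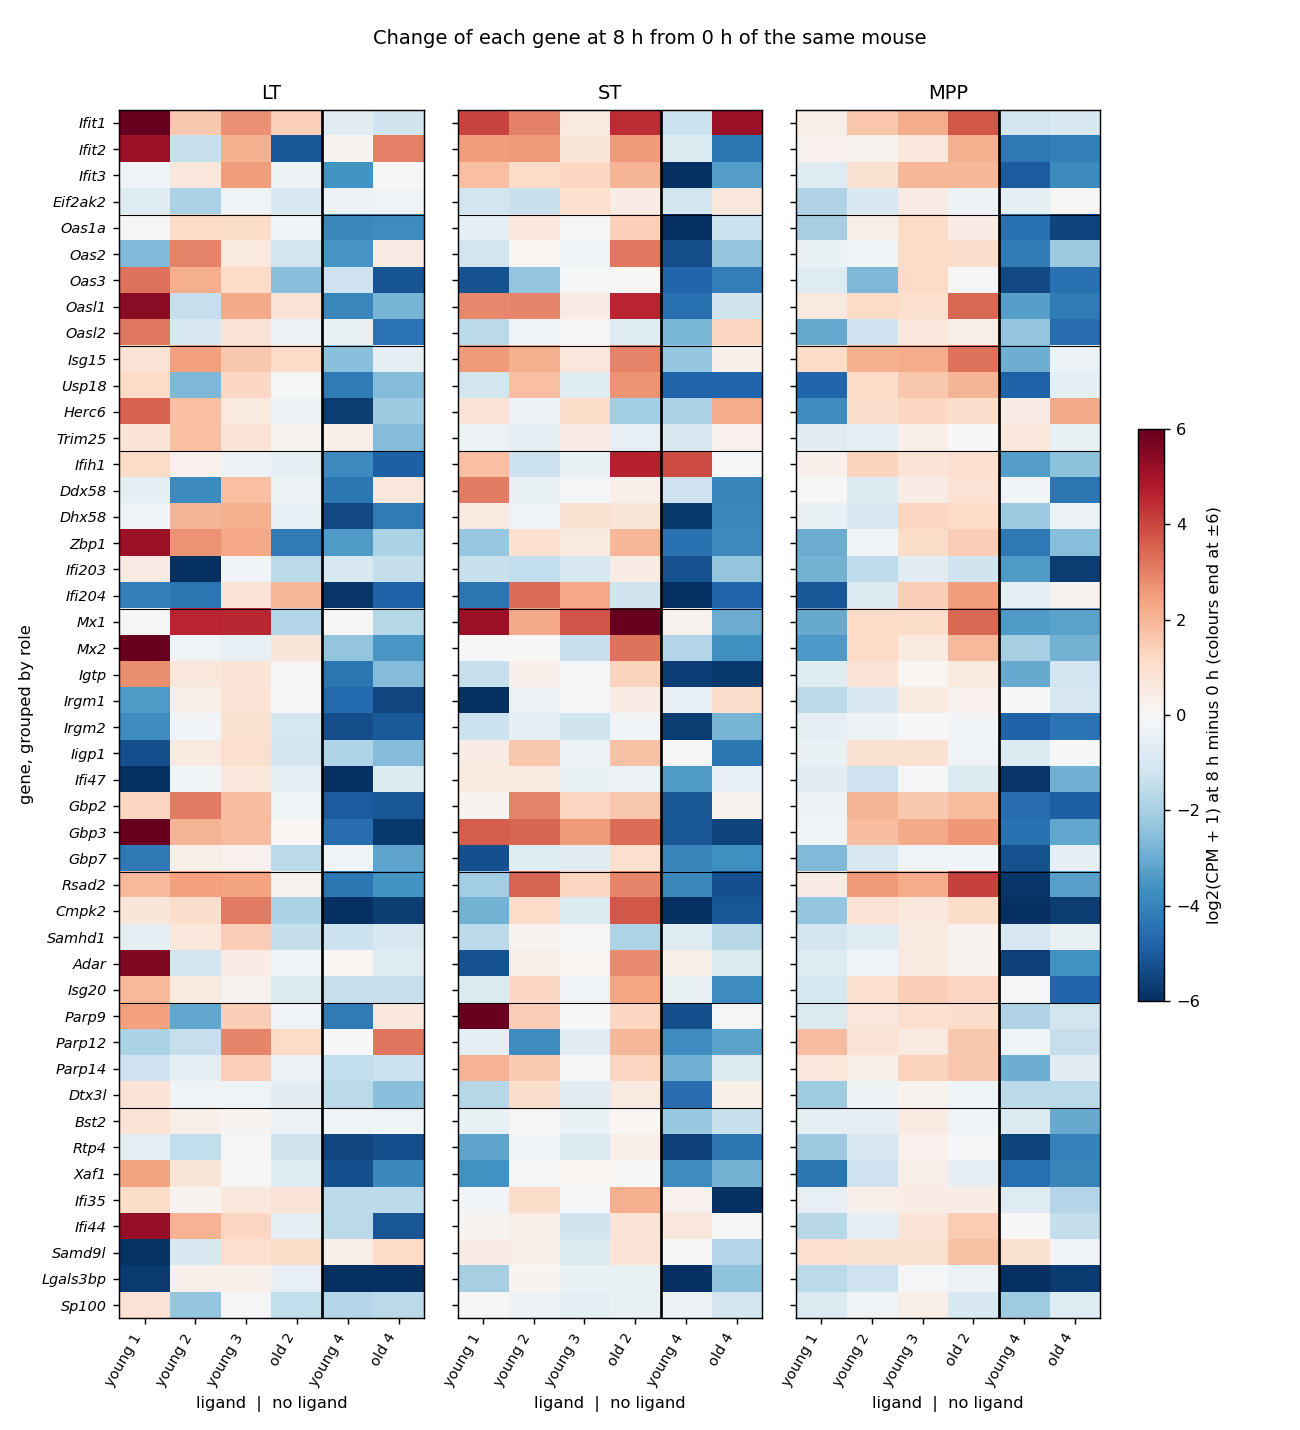
Change of each of the 46 genes (rows, grouped by role) at 8 h from 0 h of the same mouse, as log2(CPM + 1) differences with colours ending at ±6, with mice with ligand left and mice without ligand right of the bold line. The columns with ligand are mixed (members' median -0.78 to 1.26) and those without are mostly blue (-3.57 to -2.41).

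The immunity-related GTPases and guanylate-binding proteins, which are recruited to the vacuoles of intracellular pathogens, include both called members. At 8 h 5 of 10 members in LT, 4 in ST and 4 in MPP had an unadjusted p under 0.05. Of all genes 5.07%, 6.1% and 3.98% did so, the background for each group of genes counted this way below. Gbp3 in ST had 11.4, 218, 248 and 378 CPM in young mice 1, 2 and 3 and old mouse 2 with ligand, against 0 and 0 CPM in young mouse 4 and old mouse 4 without, whose own 0 h levels were 33.9 and 45.6 CPM. The mean with ligand was 214 ± 152 CPM (SD, n = 4), at least 236-fold higher than the limit of 3 counts over both mice without. In the fit the change of Gbp3 was 13.66 ± 2.90 log2 units (SE) higher with ligand (edgeR adjusted p = 0.0261), a value that depends on the prior count since the mice without ligand were at 0. No value with ligand overlapped with those without, and young mouse 1 was the low one with ligand.

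Igtp, an immunity-related GTPase induced by interferon gamma, had 25.6, 69.5, 86.8 and 237 CPM in ST at 8 h with ligand, against 0 and 0 CPM without. At 0 h its levels had been 68.8, 56.5, 94.5 and 93.2 CPM in the ligand courses and 49.7 and 54.5 CPM in the others. Its mean with ligand, 105 ± 92.0 CPM (SD, n = 4), was at least 115-fold above the same limit, and its fitted difference was 11.29 ± 2.31 log2 units (edgeR adjusted p = 0.0218). The groups did not overlap, and 2 of the 4 mice with ligand, young mice 1 and 3, were below their own 0 h levels. Both calls were lost when young mouse 2, young mouse 3, young mouse 4, old mouse 2 or old mouse 4 was left out (adjusted p up to 0.475 for Gbp3 and 0.371 for Igtp), and both held in 9 of 14 alternatives.

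In the other cell types neither gene passed the threshold in the main edgeR fit. With each mouse as a block edgeR called Gbp3 in LT. Over 2, 4 and 8 h together DESeq2 called both genes in LT and Gbp3 in MPP. In all it called 406 of 14401 genes in LT and 287 in MPP. Gbp3 had 151, 226, 247 and 77.2 CPM in LT with ligand, against 0 and 0 CPM without (edgeR adjusted p = 0.151). In MPP it had 33.1, 194, 260 and 407 CPM, against 0 and 2.65 CPM (edgeR adjusted p = 0.518). Igtp had 292, 106, 138 and 104 CPM in LT with ligand, against 1.20 and 4.38 CPM without (adjusted p = 0.632). Gbp2, another guanylate-binding protein, had 151, 508, 509 and 125 CPM in LT with ligand, against 0 and 0 CPM without, a log2 difference of 11.84 ± 2.83 (adjusted p = 0.151). In MPP Gbp2 had 27.3, 181, 209 and 224 CPM with ligand, against 0 and 0 CPM without (adjusted p = 0.0959). The groups did not overlap for any of these, and the lowest library with ligand was that of young mouse 1 in MPP and of old mouse 2 in LT.

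Mx1, a dynamin-like GTPase that blocks influenza virus, had 64.4, 125, 68.4 and 126 CPM in ST at 8 h with ligand, against 0.619 and 0 CPM without (edgeR adjusted p = 0.838). Its 0 h levels there had been 0.845, 25.1, 4.14 and 0.426 CPM in the ligand courses and 0.404 and 6.98 CPM in the others, and the groups did not overlap at 8 h. Irgm2, which regulates the other immunity-related GTPases, was at 0 in 1 of the 12 libraries with ligand at 8 h, LT of young mouse 1, and in 5 of the 6 without. Mx2 and Iigp1, chosen after their values were seen, were at 0 in all 6 libraries without ligand at 8 h, but both were also at 0 in at least 1 of the 12 with ligand, where their medians were 11.2 and 56.6 CPM. Iigp1 was at 0 in all 6 at 2 h as well, and at 0 h its levels there were 0 to 19.1 CPM.

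Among the enzymes that act on nucleotides and RNA, Rsad2 (viperin, which makes a chain-terminating nucleotide) and Cmpk2 (a mitochondrial nucleotide kinase encoded next to it) were at or near 0 without ligand at 8 h, and Samhd1 was not. Rsad2 in MPP at 8 h had 112, 227, 144 and 196 CPM with ligand, against 0 and 0 CPM without, a log2 difference of 12.35 ± 3.19 (edgeR adjusted p = 0.171). In LT it had 451, 408, 231 and 41.2 CPM with ligand, against 0 and 0 CPM. In ST it had 5.82, 572, 137 and 479 CPM, against 4.33 and 0 CPM. The groups did not overlap in any cell type, though young mouse 1 came within 2 CPM of the mice without ligand in ST.

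Cmpk2 had 87.0, 174, 209 and 16.6 CPM in LT at 8 h with ligand, against 0 and 0 CPM without, and their 0 h levels had been 52.2, 82.7, 23.2 and 64.2 CPM in the ligand courses and 234 and 50.4 CPM in the others. The groups did not overlap at 8 h, and old mouse 2 was below its 0 h level. Samhd1, which breaks down deoxynucleotides, had 198, 240, 115 and 57.8 CPM in LT at 8 h with ligand and 126 and 125 CPM without. In MPP it had 98.9, 68.9, 69.4 and 101 CPM with ligand, against 143 and 133 CPM without. In LT the groups thus overlapped, and in MPP both mice without ligand were above all 4 with it. Without ligand Samhd1 was lower at 8 h than at 0 h in 6 of 6 libraries, with a median change of -0.98 on the log2(CPM + 1) scale, and with ligand the median was 0.08 over the 9 courses of the 3 young mice. Its fitted differences between the courses were 1.02, 0.32 and 0.23 log2 units in LT, ST and MPP, none past the threshold (lowest adjusted p = 1.00).

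The oligoadenylate synthetases make the messenger that activates RNase L, and Oasl1 is a relative known to restrain Irf7 translation. Of 5 members 2 in LT, 2 in ST and 4 in MPP had an unadjusted p under 0.05 at 8 h. Oasl1 in MPP had 38.4, 50.6, 68.7 and 118 CPM with ligand, against 0 and 0 CPM without, with 10.47 ± 2.43 log2 units between the changes (edgeR adjusted p = 0.068). In LT it had 117, 12.9, 97.2 and 34.9 CPM, against 0 and 0 CPM (adjusted p = 0.154), and in ST 119, 251, 64.9 and 258 CPM, against 0 and 3.56 CPM (adjusted p = 0.231). Values with and without ligand were apart in each cell type. Oas3 in LT had 255, 201, 162 and 10.6 CPM with ligand, against 24.7 and 0 CPM without, and here old mouse 2 overlapped with the mice without ligand. Oas1a in MPP had 22.0, 96.3, 176 and 77.0 CPM with ligand, against 1.59 and 0 CPM without (adjusted p = 0.440).

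The Ifit proteins bind viral RNA and the translation factor eIF3. Ifit3 was above 0 in all 12 libraries with ligand at 8 h and at 0 in all 6 without. In ST it had 70.0, 145, 117 and 125 CPM with ligand, against 0 and 0 CPM without, whose 0 h levels had been 79.6 and 8.84 CPM, a log2 difference of 12.18 ± 3.59 (edgeR adjusted p = 0.398). Ifit1 in LT had 775, 169, 195 and 86.0 CPM with ligand, against 0 and 0 CPM without, but it had been at 0.527 and 1.27 CPM in these 2 mice at 0 h already. In ST Ifit1 overlapped, with 15.8, 322, 97.7 and 299 CPM with ligand and 16.1 and 34.96 CPM without. Ifit2 in MPP had 50.2, 37.8, 50.8 and 82.8 CPM with ligand, against 0 and 0 CPM without, and in LT it overlapped. Eif2ak2, the kinase PKR that halts translation, was chosen after its values were seen: it had 8.54 to 106 CPM at 8 h with ligand and 13.8 to 52.1 CPM without.

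**Figure D3:**
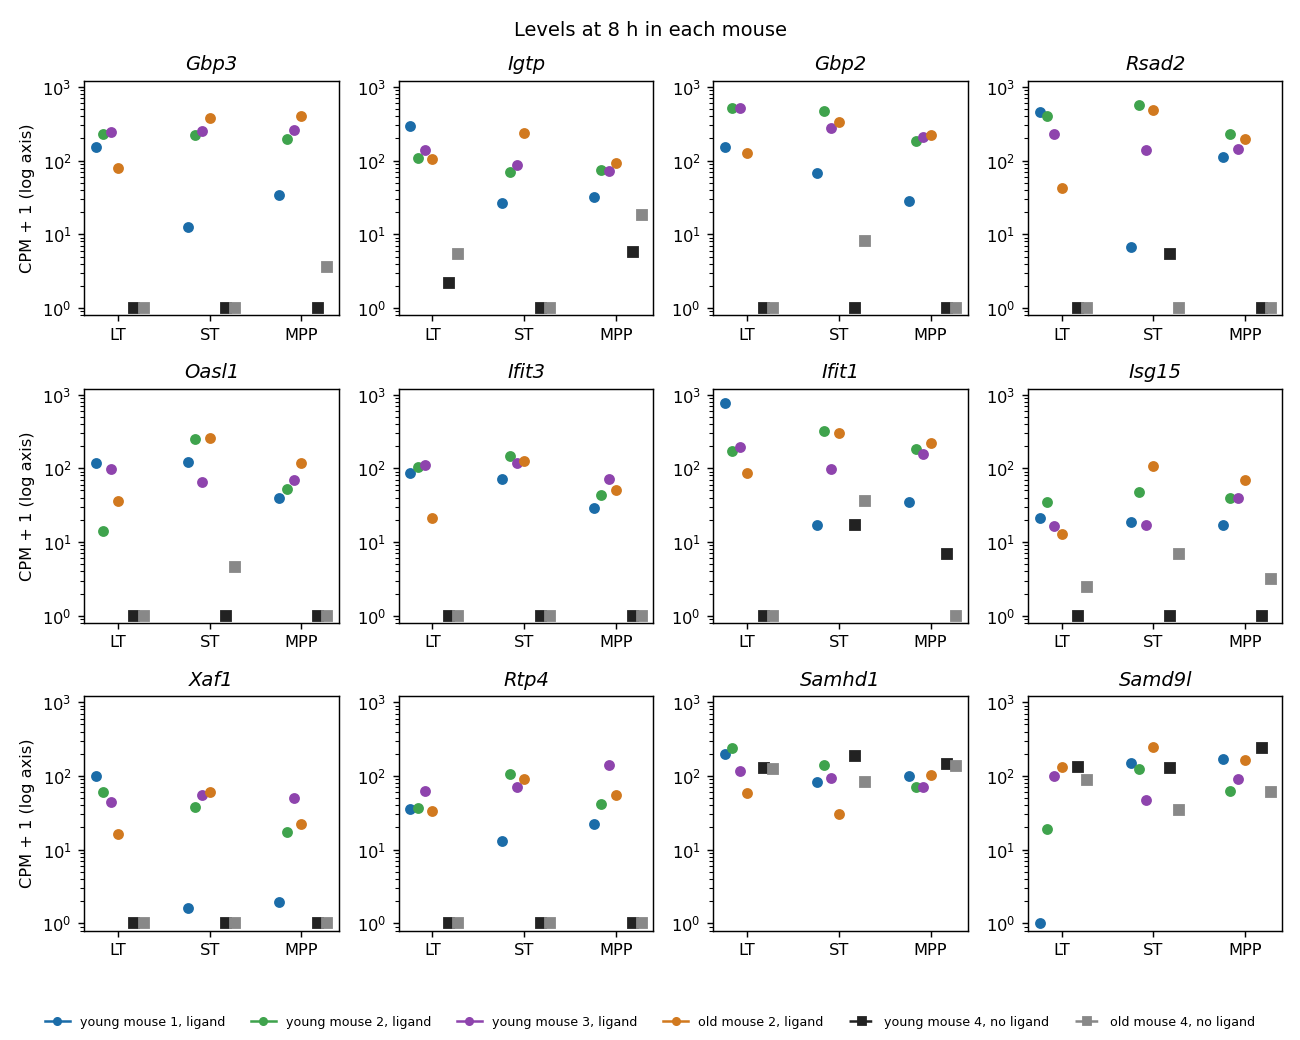
Level of 12 members at 8 h (CPM + 1, log axis) by cell type, with circles for each mouse with ligand and squares for each mouse without. The squares lie at 0 CPM in all 3 cell types for Ifit3, Xaf1 and Rtp4, overlap with the circles in all 3 for Samd9l, and lie above all circles in MPP for Samhd1.

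The ubiquitin-like Isg15, its deconjugating enzyme Usp18, which also damps the interferon receptor, the ligase Herc6 and the ligase Trim25, which modifies the sensor RIG-I, form the Isg15 system. Isg15 in MPP had 15.9, 38.8, 38.4 and 67.7 CPM at 8 h with ligand, against 0 and 2.12 CPM without (edgeR adjusted p = 1.00, unadjusted p = 0.0236). Its 0 h levels in MPP had been 6.45, 8.15, 7.47 and 6.14 CPM in the ligand courses and 6.71 and 3.03 CPM in the others, with old mouse 4 the lowest. Usp18 in ST had 31.4, 131, 20.7 and 130 CPM with ligand, against 0 and 0 CPM without, while in MPP young mouse 1 was at 0 as well. Herc6 in LT had 189, 40.9, 46.2 and 32.1 CPM with ligand, against 0 and 1.46 CPM without. Trim25 had 13.1 to 45.1 CPM in the libraries without ligand.

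The cytosolic sensors of viral nucleic acid include Ifih1 (MDA5), Ddx58 (RIG-I), their relative Dhx58 (LGP2) and the Z-nucleic acid sensor Zbp1. Ifih1 in LT had 107, 78.9, 79.0 and 78.3 CPM at 8 h with ligand, against 0 and 0.730 CPM without (edgeR adjusted p = 0.694). Dhx58 in ST had 78.1, 47.1, 73.0 and 74.4 CPM with ligand, against 0 and 0.592 CPM without (adjusted p = 0.666). Neither pair of groups overlapped. Ddx58 overlapped in LT, with 59.1, 2.85, 193 and 95.2 CPM with ligand and 3.01 and 48.9 CPM without. Zbp1 in ST had 4.99, 48.6, 21.3 and 76.6 CPM with ligand, against 0 and 0 CPM without, and in LT the groups overlapped, with old mouse 2 at 0 and old mouse 4 at 6.57 CPM. Ifi204, a DNA sensor of the p200 family, was at 0 in LT of young mice 1 and 2 with ligand, as in both mice without. Of the 6 sensors 3, 3 and 2 had an unadjusted p under 0.05 in LT, ST and MPP.

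The poly(ADP-ribose) polymerase group, in which Parp9 forms a complex with the ligase Dtx3l, had 0 of 4 members in LT, 2 in ST and 0 in MPP at an unadjusted p under 0.05 (edgeR, 8 h). Parp9 in ST had 160, 140, 143 and 159 CPM at 8 h with ligand, against 0 and 62.2 CPM without. In LT it had 4.44, 7.24, 222 and 74.0 CPM with ligand and 2.41 and 99.3 CPM without, so that the groups overlapped. Dtx3l in ST had 17.7, 163, 124 and 159 CPM with ligand and 3.71 and 97.2 CPM without, again with overlap. Parp12 was at 0 in LT of young mice 1 and 2 with ligand, where the mice without ligand had 18.6 and 16.1 CPM.

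Among the remaining members Xaf1 (a binding partner of the apoptosis inhibitor XIAP) and Rtp4 (a receptor transport protein with antiviral activity) were at 0 in all 6 libraries without ligand at 8 h. Xaf1 in LT had 97.6, 59.2, 43.6 and 15.2 CPM with ligand, against 0 and 0 CPM without, a log2 difference of 10.64 ± 2.63 (edgeR adjusted p = 0.164). Rtp4 in LT had 34.5, 36.0, 62.2 and 32.8 CPM with ligand, against 0 and 0 CPM without, and all 4 values with ligand lay below the same mice's 0 h levels of 50.5, 101, 67.2 and 75.2 CPM. Lgals3bp, a secreted galectin-binding protein, had 51.5, 83.2, 235 and 187 CPM in MPP with ligand, against 0 and 1.59 CPM without. Samd9l, a growth suppressor, overlapped in all 3 cell types, and Sp100, a nuclear body protein, in LT and ST. Samd9l ranged from 0 to 250 CPM with ligand and from 33.2 to 238 CPM without, and Sp100 from 16.3 to 194 CPM with ligand and from 26.5 to 121 CPM without.

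The courses without ligand can be read on their own. At 8 h 36 members in LT, 30 in ST and 38 in MPP were lower than at 0 h in both mice, where 31.2%, 31.7% and 38.1% of all genes were. Igtp in ST was called (8 h against 0 h: 0 and 0 CPM, against 49.7 and 54.5 CPM; it fell by 10.71 log2 units, edgeR adjusted p = 0.0107; 0.236% of all genes were called), and this call was lost when young mouse 4 or old mouse 4 was left out. No member was called in LT or MPP by edgeR, where 0.201% and 0.236% of all genes were called and the adjusted p of Xaf1 was 0.0756 and 0.0924. DESeq2 called 16, 11 and 14 members in LT, ST and MPP (3.71%, 3.9% and 3.21% of all genes in either direction), and limma voom 10, 13 and 13 (4.08%, 4.52% and 7.93%), all lower at 8 h. Members with an unadjusted p under 0.05 numbered 18 in LT, 17 in ST and 18 in MPP, all lower, against 7.64%, 7.42% and 6.42% of all genes. The comparison with ligand shares these libraries, so the 2 results are not separate evidence.

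The ligand courses on their own asked how the members changed from 0 h in young mice 1, 2 and 3, in a fit of 63 libraries over 13678 genes. The one call was Ifit3 in LT at 1 h, with 0, 0.342 and 0 CPM at 1 h, against 101, 64.0 and 18.3 CPM at 0 h (it fell by 8.55 log2 units, edgeR adjusted p = 0.0476; 0.256% of all genes were called). The call was lost when young mouse 1, 2 or 3 was left out and with 1 repeat in place of the sum. Ifit3 in LT was back at 98.6 ± 12.8 CPM at 8 h (SD, n = 3), against 61.1 ± 41.5 CPM at 0 h. At the other times in LT 0 members were called by edgeR, where 0.154%, 0.307%, 0.271%, 0.285% and 0.241% of all genes were at 0.5, 2, 4, 8 and 12 h. No member was called at any time in ST (0.146%, 0.3%, 0.307%, 0.271%, 0.263% and 0.446% of all genes at 0.5, 1, 2, 4, 8 and 12 h) or in MPP (0.0950%, 0.234%, 0.263%, 0.344%, 0.314% and 0.314%) by edgeR. Over the 6 times together DESeq2 called 5, 4 and 0 members in LT, ST and MPP, against 12.0%, 12.8% and 3.52% of all genes, and limma voom called 1, 4 and 11, against 3.6%, 8.82% and 30.8%, so these member counts were not above the background of either tool. At 8 h, an unadjusted p under 0.05 was reached by 3 members in LT, 1 in ST and 0 in MPP, against 11.3%, 7.91% and 4.15% of all genes, so the members were below the background there.

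The members took different paths over the first 2 h. Oasl1, Gbp3 and Trim25 were higher at 2 h than at 0 h in 9 of 9 courses of the 3 young mice and 3 cell types, and Ifih1 in 8. Oasl1 in LT had 371, 127 and 155 CPM at 2 h, against 1.79, 35.02 and 19.1 CPM at 0 h (3.55 ± 1.13 log2 units, edgeR adjusted p = 0.287). By 8 h Oasl1 in LT was at 117, 12.9 and 97.2 CPM. Trim25 in LT had 240, 56.7 and 109 CPM at 2 h, against 28.8, 26.4 and 45.4 CPM at 0 h (2.04 ± 0.60 log2 units, adjusted p = 0.200). For neither gene did 2 h and 0 h overlap. Higher levels at 2 h were also measured without ligand, where Trim25 was below its 0 h level in 0 of 6 libraries and Oasl1 in 1 of 6. Median changes at 2 h on the log2(CPM + 1) scale were 1.07 with ligand and 1.17 without for Trim25, and 1.83 with ligand and 1.26 without for Oasl1. For Gbp3 they were 2.14 with ligand and -0.81 without, with 5 of 6 libraries without ligand below 0 h.

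Other members were lower at 2 h in 9 of 9 courses: Oas2, Oas3, Oasl2, Herc6, Dhx58, Rtp4 and Lgals3bp, and, chosen after their values were seen, Irgm1, Iigp1 and Ifi47. Oas3 in LT had 2.41, 2.78 and 0.237 CPM at 2 h, against 26.0, 43.0 and 71.3 CPM at 0 h (a difference of -4.66 log2 units, edgeR adjusted p = 0.392). Rtp4 in ST had 34.6, 63.4 and 34.1 CPM at 2 h, against 118, 123 and 125 CPM at 0 h. The medians of the members at 2 h were -0.66 in LT, -0.45 in ST and -1.0 in MPP on the log2 scale. By edgeR none of these differences passed the threshold, and the mice without ligand had lower levels of Oas3 and Rtp4 at 2 h in 6 of 6 libraries as well.

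At 8 h against 2 h with ligand, fitted differences were positive for 38 members in LT, 38 in ST and 41 in MPP, with medians of 1.15, 0.65 and 1.35 log2 units. The share of all genes with a positive difference is not given here. No member was called by edgeR (0.0292%, 0.0146% and 0.00731% of all genes), while 11, 1 and 0 had an unadjusted p under 0.05, against 9.67%, 6.21% and 2.47% of all genes. DESeq2 called 4, 1 and 0 (5.0%, 2.92% and 0.841% of all genes), and limma voom 0, 1 and 0 (0.124%, 0.0804% and 3.76%). Oas3 in LT had 255, 201 and 162 CPM at 8 h, against 2.41, 2.78 and 0.237 CPM at 2 h (6.82 ± 1.75 log2 units, edgeR adjusted p = 0.185, called by DESeq2). Ifit3 in ST had 70.0, 145 and 117 CPM at 8 h, against 0.541, 3.02 and 0 CPM at 2 h (adjusted p = 0.442). Neither pair of groups overlapped. Ifit1 and Isg15 were above 0 h in 9 of 9 courses at 8 h, and Ifit2, Oasl1, Gbp2, Gbp3 and Rsad2 in 8 of 9.

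**Figure D4:**
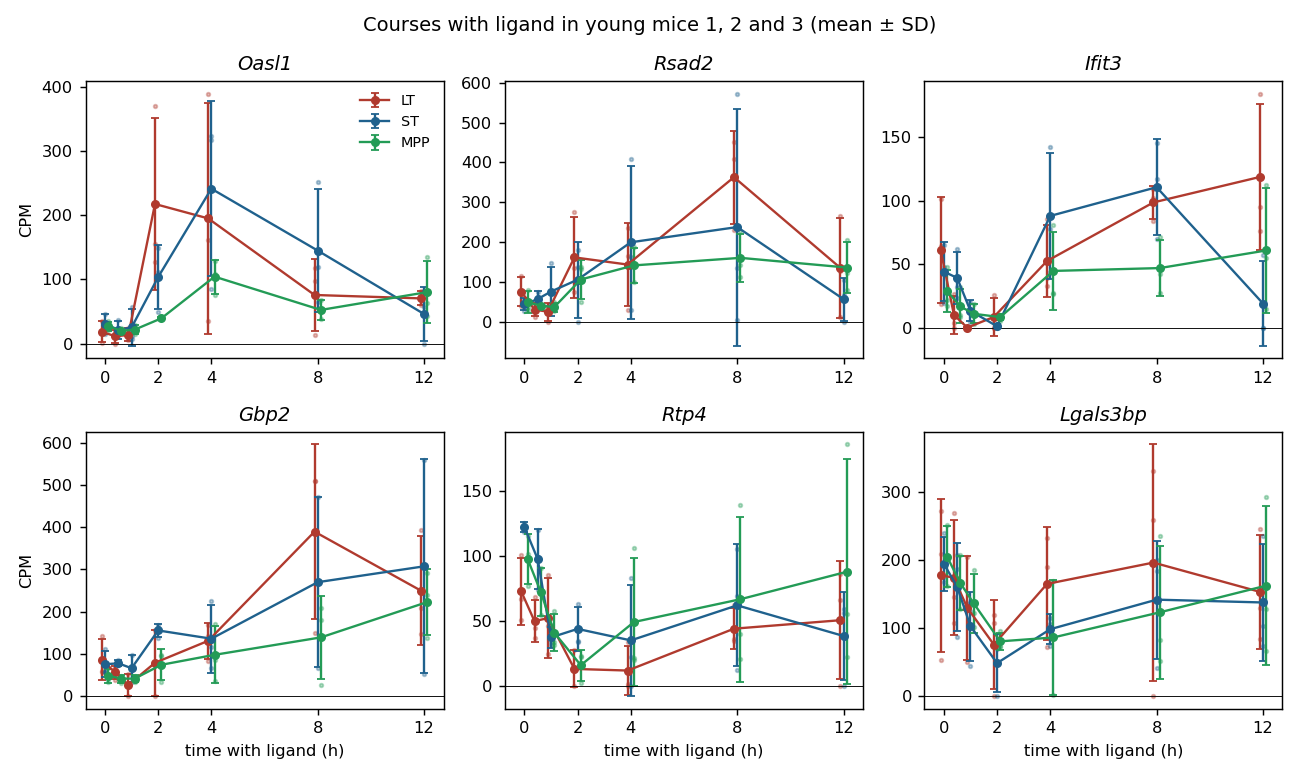
Mean level with SD (CPM, linear axis, n = 3, with single mice as faint points) of 6 members against hours with ligand in LT, ST and MPP of young mice 1, 2 and 3. The mean of Oasl1 in LT is highest at 2 h, with single mice at 371, 127 and 155 CPM, and Rtp4 in ST is lower at 2 h (34.6, 63.4 and 34.1 CPM) than at 0 h (118, 123 and 125 CPM).

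Whether the response to ligand differed between cell types was tested as an interaction at each of 6 times, and edgeR called 0 members in any pair (0.0% of all genes, but 0.00731% in LT against ST at 12 h). At 8 h, 0 members had an unadjusted p under 0.05 for LT against MPP, LT against ST or ST against MPP, against 3.22%, 4.34% and 1.65% of all genes. The fitted difference at 8 h was positive for 37 of the 46 genes in LT against MPP (median 0.54 log2 units) and for 32 in LT against ST (median 0.52). At 12 h it was positive for 37 in LT against ST (median 0.97) and for 5 in ST against MPP (median -1.01). These counts, too, have no share of all genes beside them. Over all times DESeq2 called 1 member for LT against MPP, 3 for LT against ST and 2 for ST against MPP, where 5.18%, 8.69% and 5.89% of all genes were called, and limma voom called 0 in each, where 0.205%, 0.0439% and 0.307% were. These comparisons share the LT, ST or MPP libraries and are not separate from each other.

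At 0 h no member differed between cell types or ages past the threshold by edgeR. edgeR called 0 members and 0.0% of all genes in LT against MPP, LT against ST and ST against MPP (12 young libraries), where 1, 1 and 0 had an unadjusted p under 0.05, against 2.65%, 2.79% and 1.00% of all genes. Limma voom called 0 in each (0.0% of all genes), and DESeq2 called Mx1 in LT against MPP and no member in the other pairs (0.242%, 0.251% and 0.00864% of all genes). Mx1 had 0, 0, 0.820 and 0 CPM in LT of young mice 1 to 4, against 9.11, 19.6, 13.2 and 9.70 CPM in MPP (a difference of -5.96 log2 units, edgeR adjusted p = 1.00). Mx1 in ST lay between, with 0.845, 25.1, 4.14 and 0.404 CPM. LT and MPP did not overlap, and ST overlapped with both.

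Old against young mice at 0 h gave 0 calls among members in each cell type by edgeR and limma voom (0.0% of all genes by each) and by DESeq2 (0.146%, 0.47% and 0.0308% of all genes in LT, ST and MPP). An unadjusted p under 0.05 was reached by 1 member in LT, 2 in ST and 2 in MPP, against 3.39%, 4.24% and 0.431% of all genes. The LT member was Mx1, with 7.18 and 4.66 CPM in old mice 2 and 4, against 0, 0, 0.820 and 0 CPM in young mice 1 to 4 (4.80 ± 1.80 log2 units, edgeR adjusted p = 1.00). Rsad2 in MPP had 10.3 and 8.66 CPM in old mice, against 81.2, 38.2, 29.9 and 56.3 CPM in young mice (a difference of -2.48 log2 units, adjusted p = 1.00). Neither pair of groups overlapped. Only 1 old mouse received ligand, so age and mouse cannot be told apart in the response, and old mouse 2 is given beside the young mice above.

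Of the genes upstream of the list, the interferons themselves were seldom seen. Ifnb1, interferon beta, had counts in 13 of 108 libraries with a highest level of 7.83 CPM, and 12 of the 13 were libraries with ligand after 0 h. Such libraries made up most of the 108 and were deeper, with a median at 2 h of 4885320 counts, against 2455376 without ligand. No library without ligand was collected at 1 h, so these numbers do not compare the courses. At 1 h each of the 4 mice with ligand had Ifnb1 counts in at least 1 cell type, in ST of young mouse 1, MPP of young mouse 2, ST and MPP of young mouse 3 and MPP of old mouse 2. Ifng had counts in 8 libraries and Ifna2 and Ifna4 in 1 each, while Ifna1, Ifna5, Ifnab, Ifnl2 and Ifnl3 were at 0 in all 108.

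Transcription factors of the pathway were compared at 8 h as well. Irf7, which sustains interferon production, had 53.9, 51.9, 120 and 89.3 CPM in MPP with ligand, against 0 and 0 CPM without (edgeR adjusted p = 0.147). Irf1 in ST had 59.9, 106, 143 and 151 CPM with ligand, against 8.04 and 0 CPM without (adjusted p = 0.548), and for neither gene did the groups overlap. Stat2 overlapped in LT, with 1.36, 4.92, 132 and 69.4 CPM with ligand and 0 and 51.9 CPM without. Irf9, the DNA-binding partner of Stat2, was called in LT without ligand (8 h against 0 h: 0 and 0 CPM, against 84.2 and 133 CPM; edgeR adjusted p = 0.041). That call was lost without any 1 of young mice 2, 3 and 4 and old mice 2 and 4, and with 1 repeat in place of the sum. Of the 7 receptors and kinases 1, 0 and 1 had an unadjusted p under 0.05 in LT, ST and MPP with against without ligand at 8 h, and of the 10 inducers 2, 1 and 3, with no adjusted call by edgeR.

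Calls were also made among the interferon-induced chemokines and for Socs3. Cxcl10, which attracts T cells, was called in LT at 4 and 8 h, in ST at 1, 2, 4, 8 and 12 h and in MPP at 12 h. In ST it had 250, 158 and 56.2 CPM at 2 h, against 0, 0.187 and 1.71 CPM at 0 h (8.21 log2 units, edgeR adjusted p = 0.00359). The ST calls were lost without young mouse 2 (at 12 h also without young mouse 3), and the LT and MPP calls without any 1 of the 3 mice. With limma voom the LT calls and the ST call at 12 h were lost as well, and with 1 repeat in place of the sum the MPP call. Ccl5, another T cell chemokine, was called in LT at 4 h and in ST and MPP at 4, 8 and 12 h, and all these calls were lost without young mouse 2. Those at 4 h in all 3 cell types and at 8 h in ST and MPP were also lost without young mouse 1, those in LT and ST with limma voom, and the LT call without libraries under 8000 detected genes. In MPP its 8 h change also differed between the courses, with 921, 2256, 1058 and 2002 CPM with ligand, against 24.4 and 45.1 CPM without (6.91 log2 units, adjusted p = 0.0146), lost without young mouse 2, young mouse 4 or old mouse 4 and with limma voom. Socs3, a feedback inhibitor of cytokine receptors, had 316, 259, 30.5 and 96.3 CPM in ST at 8 h with ligand, against 0 and 0 CPM without (12.12 log2 units, adjusted p = 0.0247), lost without young mouse 2, young mouse 4, old mouse 2 or old mouse 4.

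Members with and without an ISRE match can be set side by side on the difference between the courses at 8 h. In LT the 17 members with a match had a median of 4.87 log2 units and the 18 without one a median of 1.97. In ST the medians were 3.25 and 1.35, and in MPP they were 3.68 and 2.37. The ranges overlapped, from -0.55 to 12.28 with a match and from -0.41 to 13.47 without one in LT. Oasl1 and Xaf1, at 10.30 and 10.64 log2 units in LT, are among those without a match, as is Samhd1 at 1.02. These are descriptions of 35 genes and carry no test.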

How the data were processed

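Gene-level expected counts were deposited by the authors; per the submitters' processing notes they came from RSEM with the mouse build mm9, and versions, filters and annotation are not given in the sources used here. Of all values 89.5% were whole, and the rest were rounded after technical repeats had been summed (12 libraries hold several repeats). No molecular identifiers are described, so floors cover counting error only. The labels give only mouse numbers, and 6 near-empty libraries of old mouse 2 LT (7 to 41 counts) fell under the minimum of 1000 counts and were dropped.

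Tests used edgeR 4.0.16 in R 4.3.3 (quasi-likelihood F tests, TMM factors, filterByExpr, Benjamini-Hochberg adjustment over all genes of a comparison, threshold 0.05). The fits held 63 libraries of young mice with ligand (13678 genes), 72 libraries with and without ligand (14401), 12 young libraries at 0 h (11568) and 18 libraries of both ages at 0 h (12983). The main fits had no term for mouse and treated libraries of 1 mouse as independent. Fitted changes of genes at 0 counts depend on the prior count, and folds against such groups use a floor of 3 counts over the group. The scripts were tested on simulated data. Mouse numbers in the labels pair libraries of 1 mouse. Library names hold no mouse number and were matched to mice by dates or tags, collection times and numbers of repeats. Deviations from group means correlated within a mouse (mean r 0.207, 0.078 and 0.432 for young mice 1, 2 and 3). Between mice the mean r was -0.133, -0.055 and -0.223, but deviations from a mean over the same mice correlate negatively by construction. Date and mouse coincide in the names, so mouse and series cannot be told apart in these values.

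The members and lists were chosen with earlier results of these data known. Genes named with values are every member called, in each role group the 2 with the largest fitted change at 8 h and the 2 with the highest mean level, and the 3 with the smallest p in each main comparison; for pathway genes, those called and Ifnb1, Stat2, Irf7, Irf1 and Cxcl10. Some listed genes, and sums and counts that include them, are not reported here. Alternatives were DESeq2 1.42.0, limma 3.58.1 voom with quality weights, RLE factors, no filter, a 5 CPM filter, 1 repeat in place of the sum, no libraries under 8000 detected genes, mouse as a block, and each mouse left out. Alternatives for plain levels, detection at a common depth and counts at an unadjusted p were added after seeing the data. Figures were drawn with matplotlib 3.10.9.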

Additional observations from a re-analysis of the deposited data

Results flagged for a closer look

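At 8 h some members were higher than at 0 h in all 4 mice with ligand and lower than at 0 h in both mice without: 5 in LT (0.840% of all genes), 6 in ST (1.46%) and 8 in MPP (2.49%). In LT they were Ifit1, Isg15, Gbp3, Rsad2 and Ifi35. In ST they were Ifit2, Ifit3, Oasl1, Gbp3, Parp9 and Parp14, and in MPP Ifit1, Ifit2, Oasl1, Isg15, Ifih1, Rsad2, Parp12 and Parp14. For these counts the difference was not tested, and Ifi35 and Parp14 were chosen after their values were seen. Ifit1 in LT was near the limit of counting at 0 h already in both mice without ligand. Its lower level there at 8 h therefore shows no measurable fall, and the count of 5 in LT includes it. By the test of the difference itself, the 8 h change in ST was 13.66 log2 units higher with ligand for Gbp3 and 11.29 for Igtp.

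Among the 4 young mice at 0 h, 1 mouse stood far from the others for 9 of 138 combinations of member and cell type (6.52%), by Dixon's ratio of the gap to the whole range; chance gives about 1 in 20. In LT the ratio was 0.842 for Isg15 (highest in young mouse 1), 0.849 for Ifi204 and 0.888 for Parp12 (both highest in young mouse 4), 0.855 for Mx2 and 1.0 for Mx1 (both highest in young mouse 3). In ST it was 0.842 for Dhx58, 0.849 for Mx1 and 0.91 for Rtp4, and in MPP it was 0.856 for Xaf1. Mx1 in LT had 0, 0, 0.8 and 0 CPM in young mice 1 to 4. Its ratio there rests on a level near the limit of 3 counts and shows no measurable difference.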

How the results depend on the processing

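None of the recomputed differences of single genes reversed its direction under any alternative. They were a chosen set and not all members, and the direction of counts and medians was not compared. Of 290 recomputed counts 254 stayed within 1.5 times the reported one. A count of 0 that stayed at 0 was included among these, and most counts of calls were 0 in the main fit. This share therefore says little about how stable a call is. Of 446 recomputed differences of single genes 351 stayed on the same side of the threshold and 95 did not, and of 114 recomputed medians of the members 109 moved by less than 1 SD between mice. For the change from 0 h with ligand, DESeq2 called 5 members in LT and 4 in ST, limma voom 4 in ST and 11 in MPP, and 1 repeat in place of the sum gave 0 in LT. Leaving out 1 mouse gave 0 to 1 in LT and 0 to 2 in ST. For 8 h against 2 h, DESeq2 called 4 in LT and 1 in ST, limma voom 1 in ST, and leaving out 1 mouse 0 to 1 in LT. For the change with against without ligand at 2, 4 and 8 h together, DESeq2 called 14, 9 and 9 members in LT, ST and MPP, and limma voom 7, 9 and 17. Without the low-count filter 2 were called in LT and 3 in MPP, and without libraries under 8000 detected genes 3 and 1. With mouse as a replicate block 1 was called in LT and 2 in MPP, and the block changed no other count of calls by over 1.5 times. Leaving out 1 mouse gave 0 to 6 in LT, 0 to 3 in ST and 0 to 3 in MPP. The count at an unadjusted p under 0.05 in MPP was 12 to 24 when 1 mouse was left out. DESeq2 called 1, 3 and 2 members whose response differed for LT against MPP, LT against ST and ST against MPP, and 1 member for LT against MPP at 0 h. The cause of these differences between tools was not tested. Shares of all genes are given above for the main fit, DESeq2 and limma voom only. Counts under the other settings have no such background beside them and are not read as results about the members. No paired analysis was possible for old against young mice because their mouse numbers do not pair them. With 2 mice without ligand and 1 old mouse with it, n limits every comparison, and genes near 3 counts in a library were not measurable at these depths.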
